A study of Mus musculus with 4 samples.

Results

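Binding of RUVBL2 was described at the nuclear genes of the mitochondrial respiratory chain and ATP synthase in the mouse hypothalamus. The members were chosen by symbol from the protein-coding genes of a GRCm38 gene table: symbols beginning Nduf (complex I), Sdha to Sdhd (complex II), symbols beginning Uqcr and Cyc1 (complex III), symbols beginning Cox4 to Cox8 (complex IV) and symbols beginning Atp5 (complex V, the ATP synthase). They were 97 of 21779 protein-coding genes. Chromatin immunoprecipitation sequencing (ChIP-seq) with an antibody against RUVBL2 was made on hypothalamus of wild-type male C57BL/J mice aged 8 weeks, with formaldehyde-fixed chromatin. Of 4 libraries, 2 were RUVBL2 ChIP libraries and 2 were inputs, and both groups share genotype, strain, sex, age and tissue. The values analysed were the peak lists of the 2 ChIP libraries. The labels do not say whether replicates 1 and 2 came from separate animals, so their agreement may be technical in part.

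Oxidative phosphorylation runs through 5 enzyme complexes of the inner mitochondrial membrane. Complex I takes electrons from NADH and complex II from succinate, complex III passes them to cytochrome c, complex IV to oxygen, and complex V uses the proton gradient so formed to make ATP. Most subunits are encoded in the nucleus and a few in mitochondrial DNA. RUVBL2 is an AAA+ ATPase that works with RUVBL1 in chromatin remodelling complexes, in the TIP60 acetyltransferase complex and in a chaperone complex. Nuclear respiratory factor 1 (NRF1) and the ETS factor GABP are textbook activators of these genes.

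The lists held 3943 peaks in replicate 1 and 6403 in replicate 2. Each peak carries a fold enrichment at its summit over the local background that the authors' peak caller estimated. The median fold of all peaks was 4.93 in replicate 1 and 4.74 in replicate 2, on a median summit pileup of 16 and 22 reads, which was recovered from the fold and the p of each peak. Intervals below are exact Poisson 95% intervals of that pileup and cover counting error only. Where a pair of folds is given for a gene, replicate 1 comes first. Folds of the 2 lists were not tested against each other, because depth and background differ. The tissue is a mixture of cell types, so binding in few cells and weak binding in many cannot be told apart. Peaks do not measure expression. Of 12 hypothalamic neuron genes, Pomc alone held a region found in both lists, and none of the 4 astrocyte, 4 oligodendrocyte, 4 microglia and 4 endothelial markers held a peak in either list. Over all protein-coding genes the shares were 17.2% for both lists, 20.9% for replicate 1 and 32.6% for replicate 2; these short lists were not tested against them.

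A gene was counted as holding a shared region when overlapping peaks of both lists formed a joined interval whose midpoint lay in the gene or within 3 kb of it. By this rule 47 of the 97 members (48.5%) held a shared region, against 17.2% of all protein-coding genes. Replicate 1 taken alone had a peak at 51 members (52.6%, against 20.9% of all protein-coding genes), and replicate 2 at 74 (76.3%, against 32.6%). A peak in replicate 2 only was held by 26 members and in replicate 1 only by 3. Replicate 2 has the longer list (6403 peaks against 3943), and one-list genes were not counted over all protein-coding genes. The imbalance is therefore not read as a trait of the members. Sdhb had peaks in both lists that did not overlap. The remaining 20 members had no peak in either list. With the top 1000 peaks of each list, 8 members (8.25%) kept a shared region against 3.08% of all protein-coding genes, and at a −log10 q of at least 5 there were 29 (29.9%, against 8.50%).

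Members are short genes, with a median length of 7177 bp against 17217 bp for all protein-coding genes. Among genes of at most 20 kb, 39 of 83 members (47.0%) held a shared region, and 13.5% of all such protein-coding genes did. Ndufv2 held 2 shared regions, and the better ranked of them stood for it. The 47 regions that stood for the members were all different, so no region was counted for a pair of members. At 25 of the 47, however, the same region was also counted for a neighbouring protein-coding gene, and at 11 the nearest gene end was that of a neighbour. When a region counted only for the gene whose end lay nearest, 36 members (37.1%) and 13.6% of all protein-coding genes held a region. Just outside the 3 kb limit lay Uqcr11, a small complex III subunit gene whose nearest peaks were 3761 bp away in replicate 1 and 3792 bp away in replicate 2. Just inside it was the replicate 1 peak of Ndufb10, 2175 bp from the gene.

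**Figure D1:**
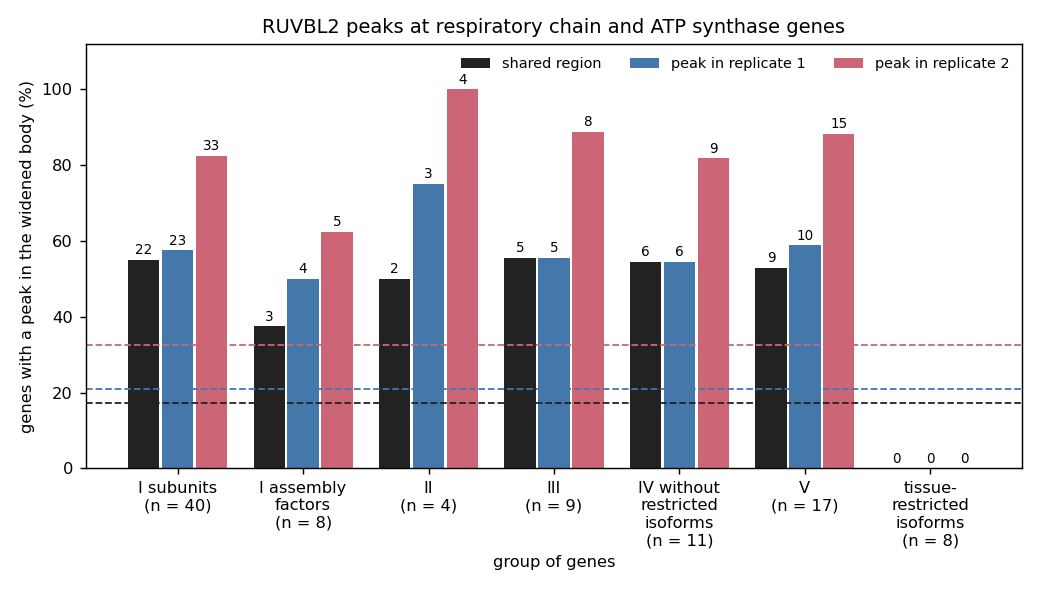
Share of genes with a shared region (black), a peak in replicate 1 (blue) or a peak in replicate 2 (red) in the gene widened by 3 kb, by group, with the number of genes written over each bar; dashed lines give the share of all protein-coding genes (17.2%, 20.9% and 32.6%). Every group except the tissue-restricted isoforms, at 0 of 8, stands above the lines.

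By complex, shared regions lay at 25 of 49 genes of complex I (51.0%), 2 of 4 of complex II (50%), 5 of 9 of complex III (55.6%), 6 of 18 of complex IV (33.3%) and 9 of 17 of complex V (52.9%). Complex IV had the lowest share by this rule, but at a −log10 q of at least 5 complex III did, with 1 of 9 (11.1%) against 4 of 18 (22.2%) for complex IV. All protein-coding genes stood at 17.2% by this rule and at 8.50% with that cut. Complex IV holds 7 of the 8 genes that the list of tissue-restricted isoforms names. Without those isoforms it had 6 of 11 genes with a shared region (54.5%). In replicate 2 alone the shares were 77.6% for complex I, 100% for complex II, 88.9% for complex III, 50% for complex IV and 88.2% for complex V. All protein-coding genes stood at 32.6% in that list. Without the isoforms complex IV had 81.8%, and complex I without its isoform and its assembly factors had 82.5%. No test was made between complexes. The grouping is by symbol: Ndufa4 is counted in complex I, although its product is now assigned to complex IV, and moving it would shift 1 gene between those counts. In the top 1000 peaks of each list only complexes I (5 genes) and V (3 genes) held a shared region. Only 3.08% of all protein-coding genes held one there, so the absence of complexes II, III and IV is not read as their trait.

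The promoters of 10 members are printed to set members with a shared region beside members with no peak in either list. They are the best-ranked members of each complex that have an entry in the RefSeq promoter table, Ndufs3 in addition (chosen after its values were seen), and 4 tissue-restricted isoforms without a peak. Sequences are RefSeq's for GRCm38.p6, 5′ to 3′ on the gene's strand, from 250 bases before the annotated start to 50 after it. Capitals mark matches on either strand to 8 short motifs. For the respiratory factors these are TGCGCA, the core of the NRF1 site and its own reverse complement, and the ETS and GABP motif CCGGAAG. For general promoter factors they are CCAAT, bound by NF-Y, the GC box GGGCGG of SP1 and the TATA box TATAAA. The others are AAGATGG for YY1, then TGACGTC for CREB and ATF, and the E-box CACGTG, also its own reverse complement. A match is a stretch of letters and was not tested as a binding site.

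Ndufs3, a core subunit of complex I, lies on the minus strand (window chr2:90904672-90904971), and its summits were 165 and 118 bp into the gene in replicates 1 and 2.
Ndufs3: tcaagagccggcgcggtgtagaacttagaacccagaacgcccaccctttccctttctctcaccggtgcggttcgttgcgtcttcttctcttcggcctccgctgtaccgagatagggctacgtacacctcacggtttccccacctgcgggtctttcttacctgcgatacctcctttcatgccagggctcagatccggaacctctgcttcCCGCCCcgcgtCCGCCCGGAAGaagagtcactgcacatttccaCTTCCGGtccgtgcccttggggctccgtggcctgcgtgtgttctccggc
Ndufb6, a supernumerary subunit of complex I (minus strand, chr4:40279372-40279671), is shown because its region was the best ranked of complex I, although the summits lay 9695 and 9736 bp from this start.
Ndufb6: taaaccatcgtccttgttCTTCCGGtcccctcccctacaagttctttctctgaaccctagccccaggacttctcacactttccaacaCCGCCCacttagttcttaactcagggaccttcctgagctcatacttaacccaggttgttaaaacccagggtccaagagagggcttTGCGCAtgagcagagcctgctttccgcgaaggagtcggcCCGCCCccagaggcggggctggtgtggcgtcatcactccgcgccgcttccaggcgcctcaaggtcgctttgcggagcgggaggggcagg
Sdhd, a membrane anchor of complex II (minus strand, chr9:50603800-50604099), had summits 155 and 290 bp upstream of the start.
Sdhd: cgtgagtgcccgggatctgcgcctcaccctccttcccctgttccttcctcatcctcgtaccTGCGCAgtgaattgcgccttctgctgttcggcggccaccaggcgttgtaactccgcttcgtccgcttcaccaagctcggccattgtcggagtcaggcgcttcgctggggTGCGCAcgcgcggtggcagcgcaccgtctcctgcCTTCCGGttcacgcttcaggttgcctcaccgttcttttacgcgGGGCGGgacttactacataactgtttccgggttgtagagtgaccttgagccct
Uqcrfs1, the Rieske iron-sulfur protein of complex III (minus strand, chr13:30545267-30545566), had summits 203 and 110 bp into the gene.
Uqcrfs1: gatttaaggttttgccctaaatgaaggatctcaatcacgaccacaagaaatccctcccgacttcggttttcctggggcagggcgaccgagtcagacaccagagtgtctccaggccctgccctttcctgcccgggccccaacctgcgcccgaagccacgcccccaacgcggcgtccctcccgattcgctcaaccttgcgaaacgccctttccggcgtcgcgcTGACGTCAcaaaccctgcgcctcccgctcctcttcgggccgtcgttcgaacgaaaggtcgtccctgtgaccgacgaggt
Cox8a, the broadly used isoform of subunit 8 of complex IV (minus strand, chr19:7217567-7217866), had summits 131 and 168 bp into the gene.
Cox8a: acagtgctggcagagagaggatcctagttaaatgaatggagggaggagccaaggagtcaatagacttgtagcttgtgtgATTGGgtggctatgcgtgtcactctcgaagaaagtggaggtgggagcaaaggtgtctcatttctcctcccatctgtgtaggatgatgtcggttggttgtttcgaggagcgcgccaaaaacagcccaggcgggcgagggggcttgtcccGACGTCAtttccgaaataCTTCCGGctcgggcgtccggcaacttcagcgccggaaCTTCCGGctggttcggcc
Atp5g2, which encodes subunit c of the membrane ring of complex V (minus strand, chr15:102670998-102671297), had summits 105 and 162 bp into the gene.
Atp5g2: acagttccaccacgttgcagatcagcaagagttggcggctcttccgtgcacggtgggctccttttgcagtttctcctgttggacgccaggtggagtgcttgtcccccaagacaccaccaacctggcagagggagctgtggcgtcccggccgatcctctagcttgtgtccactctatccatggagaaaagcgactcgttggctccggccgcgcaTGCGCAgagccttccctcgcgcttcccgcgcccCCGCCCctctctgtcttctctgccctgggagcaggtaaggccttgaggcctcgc

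The promoters of members with no peak are those of isoforms used mainly in muscle (Cox8b and Cox7a1) or testis (Cox6b2 and Cox7b2), and they are set beside the others because neither list has a peak there.
Cox8b (minus strand, chr7:140900397-140900696) is the muscle relative of Cox8a.
Cox8b: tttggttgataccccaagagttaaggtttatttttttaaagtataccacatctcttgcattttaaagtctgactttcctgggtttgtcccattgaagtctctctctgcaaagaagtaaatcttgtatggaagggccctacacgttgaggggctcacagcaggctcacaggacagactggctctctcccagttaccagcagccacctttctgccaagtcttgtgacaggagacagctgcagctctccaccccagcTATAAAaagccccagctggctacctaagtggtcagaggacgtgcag
Cox7a1 (plus strand, chr7:30183921-30184220) is the muscle relative of Cox7a2.
Cox7a1: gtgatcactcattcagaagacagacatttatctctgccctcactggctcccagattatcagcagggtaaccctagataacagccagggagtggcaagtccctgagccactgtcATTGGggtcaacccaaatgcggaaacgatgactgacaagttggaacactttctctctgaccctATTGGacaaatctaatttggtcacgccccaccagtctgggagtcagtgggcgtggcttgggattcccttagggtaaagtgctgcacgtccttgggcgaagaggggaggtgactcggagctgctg
Cox6b2 (minus strand, chr7:4753045-4753344) is the testis relative of Cox6b1.
Cox6b2: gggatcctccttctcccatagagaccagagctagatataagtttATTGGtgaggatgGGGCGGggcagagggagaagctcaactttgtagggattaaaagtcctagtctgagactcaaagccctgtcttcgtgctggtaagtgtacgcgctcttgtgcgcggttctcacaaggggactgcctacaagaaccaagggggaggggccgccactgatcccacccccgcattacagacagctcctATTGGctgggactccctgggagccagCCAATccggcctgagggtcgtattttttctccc
Cox7b2 (minus strand, chr5:71548156-71548455) is the testis relative of Cox7b.
Cox7b2: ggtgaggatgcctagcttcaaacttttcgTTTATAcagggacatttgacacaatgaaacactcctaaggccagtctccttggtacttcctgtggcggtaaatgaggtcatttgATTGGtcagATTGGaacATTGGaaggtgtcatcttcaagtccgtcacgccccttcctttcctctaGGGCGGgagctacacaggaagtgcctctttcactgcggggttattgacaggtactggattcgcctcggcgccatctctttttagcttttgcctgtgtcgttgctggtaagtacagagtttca

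Of the 6 printed promoters of members with a shared region, those of Ndufb6, Sdhd and Atp5g2 hold the NRF1 core, and those of Ndufb6, Sdhd, Cox8a and Ndufs3 hold the ETS motif. Uqcrfs1 holds the CREB motif on both strands, overlapping, and no other motif. Of the 4 printed isoform promoters, none holds the NRF1 core or the ETS motif, 3 hold CCAAT, and Cox7b2 and Cox8b hold TATAAA. This does not extend to the other members with no peak, of which 4 of 10 hold the ETS motif (40%) and 2 of 10 the NRF1 core (20%). The CpG ratio, which is the number of CG pairs over the number that the C and G content would give, was 0.115 in Cox8b, 0.333 in Cox7a1, 0.432 in Cox6b2 and 0.564 in Cox7b2. In the printed promoters of members with a shared region it was 0.656 in Ndufb6, 0.680 in Atp5g2, 0.842 in Cox8a, 0.971 in Ndufs3, 1.02 in Sdhd and 1.12 in Uqcrfs1.

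The promoter table had an entry for 78 of the 97 members, of which 38 held a shared region. Their median CpG ratio was 0.879 (range 0.520 to 1.14), and that of the 10 members with no peak that are not tissue-restricted isoforms was 0.801. All protein-coding genes with a shared region had a median of 0.846, and those without 0.464. The first listed promoter of each gene was used. GC content was less far apart: 59.7% in members with a shared region, 50.8% in the 4 tissue-restricted isoforms, 62.7% in all genes with a shared region and 54.7% in those without.

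**Figure D2:**
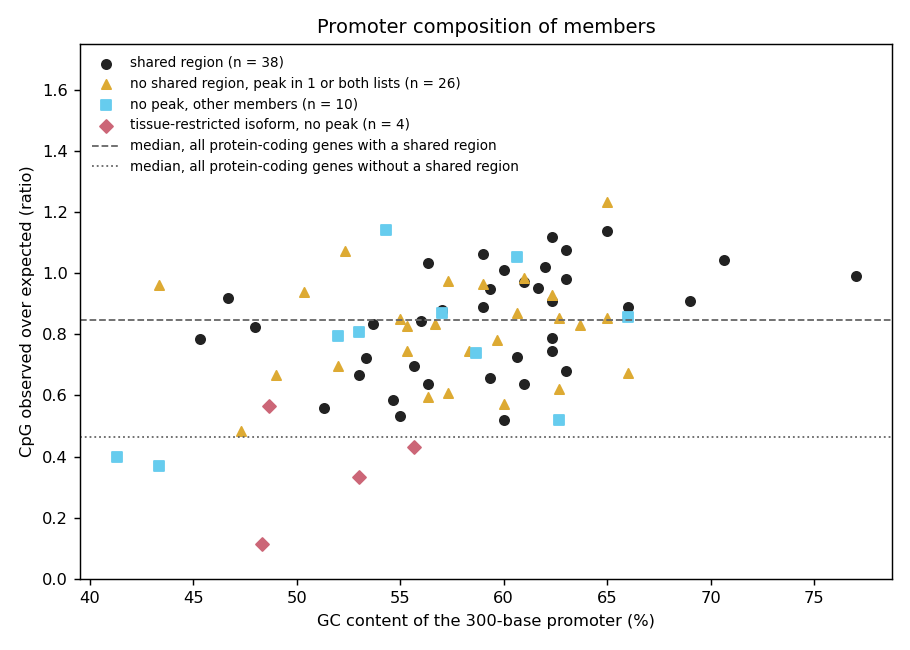
GC content (%) against CpG observed over expected (ratio) of the first listed promoter of 78 members, by peak status; horizontal lines give the medians of all protein-coding genes with (dashed, 0.846) and without (dotted, 0.464) a shared region. The 4 tissue-restricted isoforms lie at or below 0.564, while the 38 members with a shared region lie between 0.520 and 1.14.

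Motif shares among members with and without a shared region were close for the NRF1 core (9 of 38, 23.7%, and 10 of 40, 25%) and for the ETS motif (9 of 38, 23.7%, and 9 of 40, 22.5%). Over all protein-coding promoters of the same length these shares were 10.1% and 11.9%, and over those of genes with a shared region 17.2% and 21.5%. The YY1 motif was in 9 of 38 members with a shared region (23.7%) and in 2 of 40 without (5%), against 10.8% of all protein-coding genes with a region and 6.37% of all promoters. Its holders were Atp5j2, Atp5pb, Cox7c, Ndufa3, Ndufa9, Ndufaf8, Ndufc1, Ndufs4 and Ndufs7 with a shared region, and Ndufb8 and Ndufs6 without. The GC box was in 18 of 38 (47.4%), below the 67.8% of all genes with a region. CCAAT was in 13 of 38 (34.2%) with a region and 21 of 40 (52.5%) without. The remaining motifs were rarer: the CREB motif was in 5 and 2 promoters, the E-box in 3 and 3, and TATAAA in 2 and 6. Over all protein-coding promoters the GC box was in 46.3%, CCAAT in 39.0%, TATAAA in 13.3%, the E-box in 7.90% and the CREB motif in 4.0%. These shares are descriptions of 300-base windows, and 8 motifs were searched.

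RUVBL2 summits at members sat on annotated starts. Of the 38 members with a shared region and a start, 37 had their summit within 500 bp of it in each list (97.4%), where 79.9% of all protein-coding genes with a region did in replicate 1 and 80.4% in replicate 2. The exception was Ndufb6. Gene length was not matched in this comparison, and a longer gene has more room for a region away from its start. The median length was 7690 bp for members with a shared region and 25236.5 bp for all protein-coding genes with one. The median position was 118 bp into the gene in replicate 1 and 109 bp in replicate 2, beside 103 and 101 bp over all genes. Summits lay downstream of the start at 26 of 38 members in replicate 1 (68.4%) and 28 of 38 in replicate 2 (73.7%), close to the 66.5% and 65.7% of all protein-coding genes with a region. The summits of both lists were a median of 83 bp apart over the 47 members (at most 419 bp), and the regions were 349 to 1512 bp wide with a median of 592 bp. Counted by starts, 37 of 78 members (47.4%) had both summits of a region within 1 kb of a start, against 15.4% of all protein-coding genes with a start in the table.

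**Figure D3:**
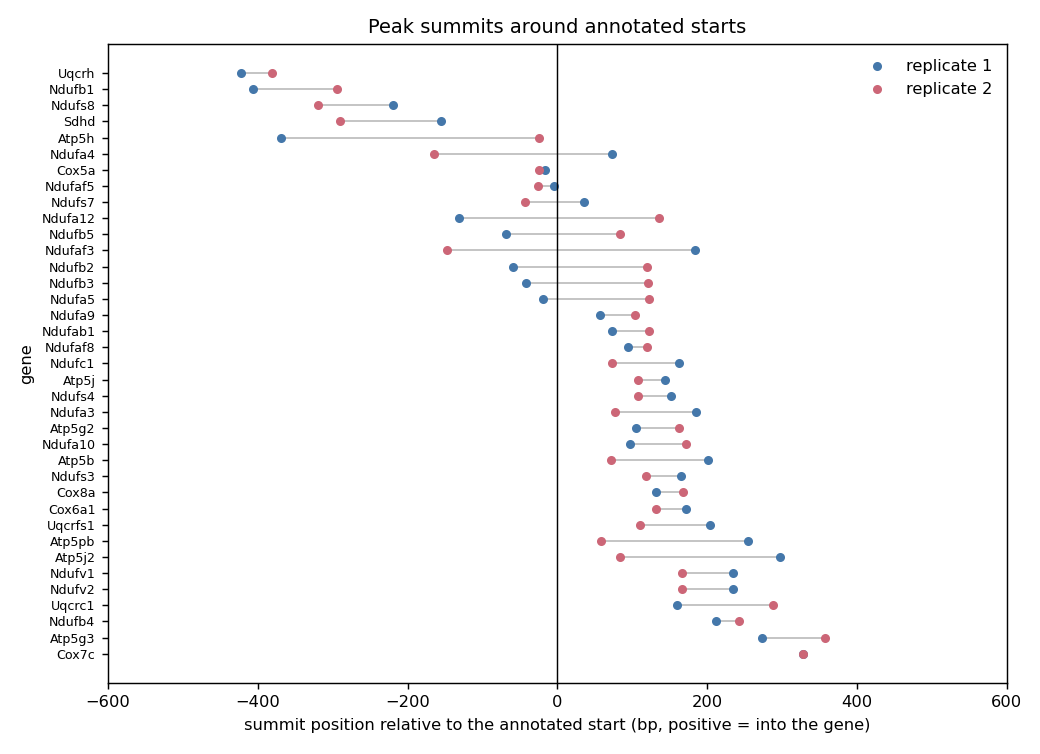
Position of the peak summit relative to the nearest annotated start (bp, positive into the gene) in replicate 1 (blue) and replicate 2 (red) for the 37 members with a start within 1 kb; grey lines join the libraries. Summits run from 423 bp upstream (Uqcrh) to 357 bp downstream (Atp5g3), and most lie just inside the gene.

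Some members have a neighbour that starts close by on the other strand. An annotated start of another gene on the opposite strand within 1 kb was found for 26 of the 78 members with a start. Of these head-to-head members 13 (50%) held a shared region, and 25 of the 52 others did (48.1%), beside 17.2% of all protein-coding genes. Head-to-head genes were not counted over all protein-coding genes, so the layout is not read as a trait of the members. The pairs with a region were Ndufs3 with Kbtbd4, Ndufaf8 with Tepsin, Ndufb5 with Mrpl47, Ndufb1 with Cpsf2, Ndufa5 with Asb15, Ndufb3 with Fam126b, Ndufa4 with Phf14, Ndufaf5 with Esf1, Sdhd with Timm8b, Uqcrh with Lrrc41, Atp5j with Gabpa, Atp5pb with Wdr77 and Atp5h with Kctd2. Mrpl47 encodes a mitochondrial ribosomal protein, Timm8b a chaperone of mitochondrial import and Gabpa the DNA-binding subunit of GABP. The Ndufs3 and Kbtbd4 starts are 19 bp apart and those of Atp5j and Gabpa 148 bp apart, so the peak cannot be given to either gene of such a pair.

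The level of enrichment at members was close to that of other bound genes. The median fold of the 47 members was 5.23 in replicate 1 and 5.31 in replicate 2, beside 5.14 and 5.38 over all 3744 protein-coding genes with a shared region. Folds ran from 3.09 to 9.56 in replicate 1 and from 2.90 to 10.2 in replicate 2. In the order of peaks by −log10 p, the median member stood at 36.6% of the list in replicate 1 and 30.7% in replicate 2, where all bound genes stood at 39.2% and 31.3%. The counting interval lay wholly above the list's median fold in both libraries for 3 members, Atp5a1, Ndufb6 and Ndufs3. It lay wholly below it for Ndufaf5, in replicate 2. For the other members it spanned the median in at least 1 list.

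**Figure D4:**
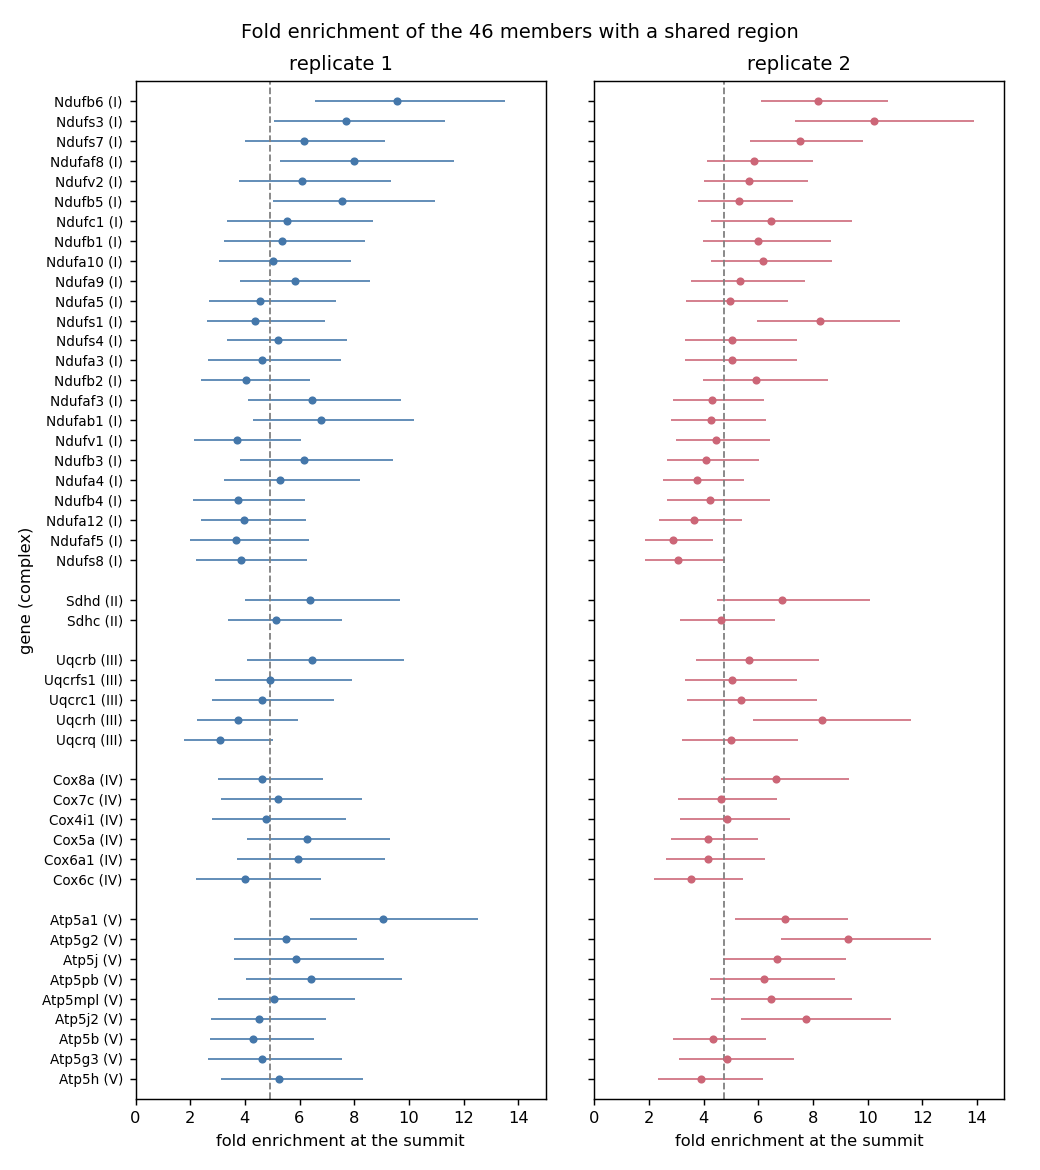
Fold enrichment at the summit (points, with exact Poisson 95% counting intervals) of 46 of the 47 members with a shared region in replicate 1 (left) and replicate 2 (right), ordered by complex and by the worse of the ranks in the lists; dashed lines give the median of all peaks (4.93 and 4.74). Most intervals cross the dashed line, and those of Atp5a1, Ndufb6 and Ndufs3 lie above it in both panels.

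In complex I, shared regions lay at the core subunit genes Ndufs1, Ndufs3, Ndufs7, Ndufs8, Ndufv1 and Ndufv2. Of the 33 supernumerary subunit genes, 15 held one (45.5%, against 17.2% of all protein-coding genes). The split into core and supernumerary genes was made after the values were seen, and the groups were not tested against each other. Some of the core subunits, though not each of them, carry the flavin and iron-sulfur centres that lead electrons from NADH to ubiquinone. Ndufs3 (GRCm38, chr2:90904190-90904834) had folds of 7.71 (5.05 to 11.3) and 10.2 (7.36 to 13.9). At Ndufs7 (chr10:80249129-80249693), the iron-sulfur subunit beside the ubiquinone site, they were 6.16 (4.0 to 9.12) and 7.54 (5.69 to 9.82). Ndufv2 (chr17:66101073-66101867), of the NADH-binding module, had 6.09 (3.79 to 9.34) and 5.67 (4.0 to 7.83). These enrichments rested on pileups of 24 and 39 reads at Ndufs3, 23 and 53 at Ndufs7, and 19 and 35 at Ndufv2.

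The folds of Ndufv1, Ndufs1 and Ndufs8 were below those of Ndufs3 in both lists, without a test. Ndufv1, which binds the flavin, had folds of 3.71 and 4.46. Ndufs1, of the NADH-binding module, had 4.37 and 8.27 in a region whose nearest gene end is that of Eef1b2, a translation elongation factor gene. The lowest ranked member of complex I was Ndufs8, with 3.85 (2.22 to 6.29) and 3.06 (1.85 to 4.80), and there the end of Aldh3b1 was nearer.

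Among the other Nduf subunit genes, called supernumerary, Ndufb6 had the best ranked region (chr4:40269352-40269930), with folds of 9.56 (6.55 to 13.5) and 8.19 (6.12 to 10.7). This region lay 865 and 906 bp beyond the far end of Ndufb6 by its summits and was nearest to Smim27, and Topors is also within reach, so it does not mark the Ndufb6 start. Ndufb5 (chr3:32736307-32737536) had 7.56 (5.03 to 10.9) and 5.31 (3.78 to 7.26). Shared regions were also held by Ndufa3, Ndufa4 (by symbol only), Ndufa5, Ndufa9, Ndufa10, Ndufa12, Ndufab1, Ndufb1, Ndufb2, Ndufb3, Ndufb4, Ndufc1 and Ndufs4. Their folds ran from 3.74 (Ndufb4) to 6.78 (Ndufab1, the mitochondrial acyl carrier protein) in replicate 1 and from 3.65 (Ndufa12) to 6.46 (Ndufc1) in replicate 2.

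A peak in replicate 2 only was held by 11 supernumerary subunits. The strongest was Ndufa2 with a fold of 7.58 (5.13 to 10.8), followed by Ndufa6 (6.86), Ndufa7 (5.89), Ndufb8 (4.98), Ndufb11 (4.94), Ndufa13 (4.24), Ndufc2 (3.88), Ndufb9 (3.77), Ndufa8 (3.57), Ndufs5 (2.91) and Ndufv3 (2.79). The nearest replicate 1 peak to Ndufa6 was 4004 bp away. Ndufb10 had a peak in replicate 1 only, with a fold of 3.70. No peak was listed for Ndufa1, Ndufa11, Ndufb7 and Ndufs6, nor for Ndufb4b and Ndufb4c, whose symbols are close to that of Ndufb4. Reads from near-identical genes can be lost or split by alignment, and the treatment of such reads is not known here. The sequences of these genes were not compared, and whether this applies to them was not tested.

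Assembly factors help to build complex I and are not part of it. Of the 8 Ndufaf genes, 3 held a shared region (37.5%, beside 17.2% of all protein-coding genes, with few genes in the list). Ndufaf8 (chr11:120098875-120099483) had folds of 8.00 (5.28 to 11.7) and 5.83 (4.13 to 8.01). Ndufaf3 had 6.45 and 4.30, and Ndufaf5, the assembly factor that works with Ndufaf8, 3.69 (2.00 to 6.36) and 2.90 (1.84 to 4.36). Ndufaf2 (5.39) and Ndufaf7 (4.54) had a peak in replicate 2 only, and Ndufaf1 (4.0) in replicate 1 only. Ndufaf4 and Ndufaf6 had none.

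All 4 subunit genes of complex II, succinate dehydrogenase, had a peak in replicate 2. In that list 76.3% of all members and 32.6% of all protein-coding genes had one. The membrane anchor genes Sdhd and Sdhc held shared regions. At Sdhd (chr9:50603436-50604309) the folds were 6.38 (4.02 to 9.69) and 6.86 (4.49 to 10.1). At Sdhc (chr1:171150113-171150698) they were 5.14 (3.37 to 7.55) and 4.62 (3.12 to 6.60). Sdhb, the iron-sulfur subunit, had a peak of 6.47 (4.07 to 9.83) in replicate 1, with its summit 162 bp into the gene, and a weaker one of 3.06 (1.73 to 5.09) in replicate 2, 764 bp into the gene. Sdha, the flavoprotein that oxidises succinate, had a fold of 8.45 (5.90 to 11.8) in replicate 2, rank 414 of 6403 in that list, while the nearest replicate 1 peak was 289768 bp away.

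Complex III hands electrons from ubiquinol to cytochrome c. Uqcrb (chr13:66904961-66905607), a ubiquinone-binding subunit, ranked first with folds of 6.47 (4.07 to 9.83) and 5.65 (3.73 to 8.23). Uqcrfs1 (chr13:30544962-30545504) had 4.93 (2.90 to 7.93) and 5.04 (3.30 to 7.40), and the core protein gene Uqcrc1 4.62 (2.80 to 7.25) and 5.38 (3.38 to 8.16). Uqcrh, the hinge protein, had 3.75 (2.24 to 5.95) and 8.33 (5.81 to 11.6), in a region nearer to Lrrc41. The lowest ranked was Uqcrq, with 3.09 (1.78 to 5.04) and 5.0 (3.21 to 7.45), nearest to Gdf9. Uqcrc2 (5.87), Uqcr10 (5.02) and Cyc1 (4.32), the cytochrome c1 gene, had a peak in replicate 2 only, and Uqcr11 had none. When a region counted only for the gene whose end lay nearest, 3 of 9 genes held one.

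Complex IV, cytochrome c oxidase, has tissue-specific isoforms of several nuclear subunits. Cox8a (chr19:7217092-7217651) ranked first, with folds of 4.63 (3.01 to 6.85) and 6.66 (4.62 to 9.32). Cox7c had 5.23 (3.12 to 8.30) and 4.62 (3.08 to 6.70), and Cox4i1, the common form of subunit 4, 4.78 (2.81 to 7.70) and 4.84 (3.14 to 7.16). The Cox4i1 region was nearest to Gm27021 and was also counted for Emc8. At Cox5a, a matrix-side subunit, the folds were 6.29 (4.08 to 9.30) and 4.17 (2.80 to 6.0); its region lay inside the gene row, 3887 and 3880 bp from an end, but 17 and 24 bp upstream of the annotated start. Cox6a1 had 5.95 (3.70 to 9.13) and 4.15 (2.64 to 6.24), and Cox6c, ranked last, 4.01 (2.22 to 6.77) and 3.54 (2.20 to 5.43). Cox5b (5.72), Cox7a2l (4.09), whose product joins complexes III and IV in supercomplexes, and Cox7a2 (3.87) had a peak in replicate 2 only.

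None of the 8 tissue-restricted isoforms held a peak in either list. By the approximate limit of 3 over the number of genes, which is rough at 8 genes, a count of 0 allows a share of up to 37.5%. Pair by pair, Cox4i1 held a shared region and Cox4i2 none, Cox6a1 did and Cox6a2 did not, Cox8a did and neither Cox8b nor Cox8c did, and Ndufa4 did (folds 5.30, 3.25 to 8.21, and 3.77, 2.51 to 5.46) while Ndufa4l2 did not. Cox7a2 had a replicate 2 peak and Cox7a1 none. In the other two pairs, Cox6b1 with Cox6b2 and Cox7b with Cox7b2, no member had a peak. The nearest peak lay 14628 bp (Cox7a1) to 328423 bp (Cox8b) away in replicate 1 and 8773 bp (Cox7a1) to 152610 bp (Cox7b2) away in replicate 2. Of the other 89 members, 47 held a shared region (52.8%), beside 17.2% of all protein-coding genes. The isoform genes were also shorter, with a median length of 1682.5 bp. Cox7b is on chromosome X, as are Ndufa1 and Ndufb11. On X only 17 of 963 protein-coding genes (1.77%) held a shared region, and none of these 3 members did.

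In complex V, Atp5a1, the α subunit of the catalytic F1 head, had the best ranked region, with folds of 9.07 (6.39 to 12.5) and 6.99 (5.16 to 9.28), on 35 and 46 reads. It lay within the gene, 386 and 303 bp from its end by the summits, but nearer to the end of the neighbouring gene Haus1. Atp5g2 (chr15:102670610-102671112) had 5.51 (3.61 to 8.09) and 9.27 (6.84 to 12.3). Atp5j, coupling factor 6 of the stalk, had 5.86 (3.60 to 9.08) and 6.67 (4.70 to 9.20) in the region that it shares with Gabpa. Atp5pb, subunit b of the peripheral stalk, had 6.41 (4.03 to 9.73) and 6.20 (4.22 to 8.82). Atp5mpl, a small membrane subunit, had 5.06 (3.02 to 8.03) and 6.46 (4.27 to 9.42), and Atp5j2, subunit f, 4.51 (2.77 to 6.98) and 7.76 (5.38 to 10.9).

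Atp5b, the catalytic β subunit, had folds of 4.30 and 4.33, and Atp5h, subunit d, ranked last with 5.24 (3.13 to 8.32) and 3.89 (2.32 to 6.17). All 5 genes of the F1 head had a peak in replicate 2, but only Atp5a1 and Atp5b in both lists. Over all members the replicate 2 share was 76.3%, and over all protein-coding genes 32.6%. The fold of Atp5c1, the rotating γ subunit, was 7.41 (5.32 to 10.1) in replicate 2, rank 385 of that list, with no replicate 1 peak nearer than 1421106 bp. Atp5d (5.24) and Atp5e (4.25) also had a replicate 2 peak only, as did Atp5o (4.03), Atp5md (3.19) and Atp5l (2.63). Subunit c, which forms the rotor ring, is made from 3 genes with the same mature protein: Atp5g2 and Atp5g3 (4.62 and 4.87) held shared regions and Atp5g1 a peak in replicate 1 only (4.62). Atp5k, subunit e, had none.

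Members listed by replicate 2 only rested on somewhat weaker peaks. Their median fold was 4.43 on a median pileup of 24 reads, where the 47 shared members had 5.31 and 26 reads in that list. Over all 3276 replicate 2 peaks outside shared regions the medians were 4.39 and 19 reads. The 3 members listed by replicate 1 only had folds from 3.70 to 4.62 on 11 to 14 reads. A member without a peak did not pass the threshold of the peak caller at that depth, which does not show that RUVBL2 was absent.

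Of 46 assembly and partner genes outside the members, 22 (47.8%) held a shared region, beside 17.2% of all protein-coding genes. The strongest were Sdhaf2, an assembly factor of complex II, with folds of 11.8 (8.48 to 16) and 10.6 (7.63 to 14.4) in a region nearer to Cpsf7, and Cox20, an assembly factor of complex IV, with 10.4 (7.31 to 14.4) and 9.40 (7.17 to 12.1). Cycs, cytochrome c itself, had 5.24 and 6.20. Of 18 regulators of mitochondrial gene expression, 8 (44.4%) held a shared region, beside the same 17.2%: Nrf1, Gabpa, Gabpb1, Gabpb2, Ppargc1b, Pprc1, Esrra and Yy1. Nrf1 had folds of 11.1 (7.81 to 15.3) and 11.2 (8.11 to 15.2) and Gabpb1 of 8.94 (6.04 to 12.8) and 12.8 (9.44 to 17.0). Tfam, the packaging factor of mitochondrial DNA, had a peak in replicate 2 only. Neither list had a peak on the mitochondrial genome, and it is not known here whether its reads were kept.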

How the data were processed

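Members and gene lists were chosen with earlier results of these data known. Per the submitters' processing notes, Bowtie2 2.3.4.1, Trimmomatic 0.33, bcl2fastq 2.17, ChIPseeker and MACS2 2.1.0 were used, with GRCm38. Their settings, and which control MACS2 had, are not known here. Peaks were called per library. In the deposited lists the authors give each peak a fold enrichment (a ratio), a −log10 p, a −log10 q and a score, an integer made from the −log10 q. Replicate 2 was taken by its sample, since its peak names carry another number than its title. The input libraries were not analysed here.

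Summit pileup and background were solved from fold and −log10 p (whole pileups for 100% of peaks in both lists, within a relative tolerance of 0.0001; the step was tested on simulated data). Read totals are unknown. Peaks overlapping by at least 1 bp were joined. Genes came from a RefSeq table of GRCm38.p6, and starts and strand from a RefSeq promoter table. Members were placed by peak midpoint; the peak with the best rank by −log10 p stood for a gene. Named with intervals were up to 6 best ranked members and the lowest ranked one per complex, by the worse rank of both lists; isoform pairs and members in 1 list only were named with values. No test between groups was possible, since both ChIP libraries form 1 group. Python 3.11.15, numpy 2.4.6, pandas 2.3.3 and scipy 1.17.1 were used. The values of 1 member and of 1 gene of the pathway lists are not reported here, though both are in the counts.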

Additional observations from a re-analysis of the deposited data

How the results depend on the processing

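The share of members with a region was 2.34 to 3.52 times that of all protein-coding genes under each of the 14 alternatives run, against 2.82 as reported; the limit to genes of at most 20 kb and leaving out chromosome X were chosen after seeing the data. The count of members, 47, ran from 51 to 74 in single lists (genes of complex I 27 to 38, II 3 to 4, III 5 to 8, IV 6 to 9, V 10 to 15, tissue-restricted isoforms 0). Replicate 2 alone gave 7103 of all protein-coding genes against 3744. At a −log10 q of at least 5 there were 29 members (16 of complex I, 1 of complex III) and 1852 genes in all; with the top 1000 peaks there were 8 members (5 of complex I, 0 of complexes II, III and IV, 3 of complex V) and 671 genes. Assembly factors numbered 5 in replicate 2 alone and 1 with the top 1000 peaks. By nearest gene end complex III had 3 genes. Of 121 alternative values, 100 were counted as unchanged, which for counts above 0 meant within 1.5 times the reported value. Among the 100 are the isoform counts, which stayed at 0, so no ratio exists for them. The Ndufv2 folds, judged by their counting intervals, are also among them. Their alternative took the Ndufv2 region nearest to a gene end, and its values were identical to those reported. No paired analysis was possible because the peak lists used here come from the ChIP libraries alone, which form 1 group. Depth limits single genes: a pileup of 11 to 35 reads in replicate 1 leaves wide intervals.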

Other observations

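The citrate cycle feeds electrons to complexes I and II. Of 13 of its genes, 5 held a shared region (38.5%, against 17.2% of all protein-coding genes). A peak in replicate 2 was held by 11 of the 13, against 32.6% of all protein-coding genes. Among them, with replicate 1 first, Mdh2, malate dehydrogenase, had folds of 3.92 and 4.96, Fh1, fumarase, 4.32 and 4.86, Cs, citrate synthase, 4.24 and 3.66, and Sucla2, a succinyl-CoA ligase subunit, 3.70 and 6.86. Idh3a had a peak in replicate 1 only.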
